A study of Mus musculus with 6 samples.

Results

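Gad1, Gad2, Slc32a1, Slc6a9, Slc6a11, Pax6, Tfap2a and Tfap2b are genes of the inhibitory amacrine cells of the retina. They were picked by name from a table of poly-A RNA-seq values of mouse retinal ganglion cells (RGCs). Pax6 is not particular to amacrine cells, since RGCs and retinal progenitors also make it. Of these 8 genes, 4 had an entry among the 10361 gene names of the table, namely Gad2, Slc6a9, Slc6a11 and Pax6. All 4 also passed the filter on low values, a mean of at least 1 FPKM over all libraries. Gad1, Slc32a1, Tfap2a and Tfap2b were not analysed here.

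The table held 6 libraries in 3 groups of 2, all from wild-type mice of strain C57/6NCrl. In the adult miR-1247 group, RGCs had received AAV2, a viral vector, that expressed a miR-1247-5p mimic. In the adult control group the AAV2 carried a scramble shRNA mimic. Both adult groups were immunopanned for Thy1, a surface protein of RGCs, from 10 retinas per condition, and then sorted for mCherry to about 5000 cells. The embryonic day 18 (E18) group consisted of untreated RGCs, about 50000 cells immunopanned for Thy1 without sorting. Age therefore cannot be told apart from the virus, the sort or the number of cells, since both adult groups carried AAV2. Nothing in the labels ties the libraries of a group to separate animals, and the p-values then measure only how far these libraries differ, which may be technical. No counts were used, so the depth behind the values is unknown. The values are FPKM, fragments per kilobase of transcript scaled to the size of the library, and their sum per library, with names made of the same loci counted once, ranged between 340208 and 392955, and Pearson's r between the libraries of a group, across genes, was between 0.981 and 0.985.

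Amacrine cells are interneurons that shape the signals passed on to RGCs, and some of them, the displaced amacrine cells, lie in the ganglion cell layer beside RGCs. GABAergic amacrine cells make GABA from glutamate with the 2 glutamate decarboxylases encoded by Gad1 and Gad2, and glycinergic amacrine cells concentrate glycine with the transporter encoded by Slc6a9. The product of Slc32a1 loads either transmitter into vesicles, and that of Slc6a11 clears GABA from the extracellular space, in the rodent retina in amacrine cells and in Müller glia. Pax6 is a transcription factor of retinal progenitors that amacrine cells and RGCs go on making, and Tfap2a and Tfap2b encode AP-2 factors of amacrine and horizontal cells.

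The expressed microRNA is shown first, because it defines the treated group, with its seed (bases 2 to 8) in capitals. The promoters of the 3 genes that were higher in adult libraries follow, with that of the first of 2 start sites of Pax6 for comparison. Capitals in them mark GCCNNNGGC, the core letters bound by AP-2 factors, which were searched as this palindrome and so on both strands. Each promoter runs from 250 bases before to 50 after the start. All sequences are from RefSeq on GRCm38.p6 and are written 5′ to 3′ on the strand given. Promoters of all 8 genes were found in that table.
miR-1247-5p, chr12:110278094-110278115, minus strand: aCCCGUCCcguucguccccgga
Gad2, chr2:22622077-22622376, plus strand: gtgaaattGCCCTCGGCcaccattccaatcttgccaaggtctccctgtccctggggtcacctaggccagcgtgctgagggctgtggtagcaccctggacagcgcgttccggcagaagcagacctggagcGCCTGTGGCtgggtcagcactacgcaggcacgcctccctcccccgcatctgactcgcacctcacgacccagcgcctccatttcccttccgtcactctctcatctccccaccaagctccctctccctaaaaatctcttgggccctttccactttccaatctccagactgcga
Slc6a9, first of 3 start sites, chr4:117835008-117835307, plus strand: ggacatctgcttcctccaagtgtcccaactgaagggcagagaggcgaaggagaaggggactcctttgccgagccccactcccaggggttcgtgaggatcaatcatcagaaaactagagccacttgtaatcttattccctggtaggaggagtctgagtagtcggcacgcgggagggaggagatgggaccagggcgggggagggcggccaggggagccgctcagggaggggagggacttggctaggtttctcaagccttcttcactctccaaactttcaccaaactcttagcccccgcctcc
Slc6a11, chr6:114130991-114131290, plus strand: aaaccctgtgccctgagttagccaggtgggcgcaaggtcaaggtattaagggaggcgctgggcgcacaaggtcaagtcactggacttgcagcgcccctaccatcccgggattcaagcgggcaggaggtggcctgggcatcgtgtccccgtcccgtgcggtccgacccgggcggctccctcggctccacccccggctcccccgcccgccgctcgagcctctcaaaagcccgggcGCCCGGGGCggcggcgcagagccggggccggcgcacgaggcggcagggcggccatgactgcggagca
Pax6, first of 2 start sites, chr2:105668646-105668945, plus strand: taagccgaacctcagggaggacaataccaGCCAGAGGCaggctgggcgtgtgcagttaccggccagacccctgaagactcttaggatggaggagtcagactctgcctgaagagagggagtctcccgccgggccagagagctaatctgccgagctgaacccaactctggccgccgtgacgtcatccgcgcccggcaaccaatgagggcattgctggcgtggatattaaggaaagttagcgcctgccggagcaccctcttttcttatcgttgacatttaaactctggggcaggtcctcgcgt

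The Gad2 promoter held 2 matches to GCCNNNGGC, at bases 9 and 130 of the printed run. The Slc6a11 promoter held 1 match, at base 234, and the first Pax6 promoter held 1, at base 30. The 3 Slc6a9 promoters and the second Pax6 promoter had none. Of 32851 promoters of the same length, 16.6% held the motif. A match is a description of the letters only.

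The letters complementary to the miR-1247-5p seed, GGACGGG, were in the 3′ untranslated region of 322 of 9924 genes with an entry (3.24%), taking the canonical GENCODE transcript of each gene. Neither this 7-base match nor the shorter GACGGG (bases 2 to 7, in 9.00% of the genes) was present in that region of Gad2, Slc6a9, Slc6a11 or Pax6. The regions searched were 3528 bases long for Gad2, 1063 for Slc6a9, 2212 for Slc6a11 and 4252 for Pax6. Among the genes without an entry, Slc32a1 and Tfap2b each held 1 match to GACGGG.

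Gad2, the synthesis gene, lies at chr2:22512127-22583886 in the build of the table (mm39). It had 104 and 110.0 FPKM in adult miR-1247 libraries, 81.2 and 82.5 FPKM in adult control libraries, and 0.682 and 1.03 FPKM in E18 libraries. The 3 groups did not overlap, and the E18 libraries were at the bottom of the scale. The group means were 107 ± 4.54, 81.8 ± 0.907 and 0.856 ± 0.246 FPKM (SD, n = 2) in adult miR-1247, adult control and E18 libraries.

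Slc6a9, the glycine transporter gene at chr4:117691702-117729751, had 34.5 and 41.2 FPKM in adult miR-1247 libraries. In adult control libraries it had 31.2 and 30.1 FPKM, and in E18 libraries 0.448 and 1.42 FPKM. The E18 libraries lay far below both adult groups, while the miR-1247 libraries differed from each other by more than the lower of them differed from the control libraries. The means were 37.8 ± 4.76 FPKM in adult miR-1247, 30.6 ± 0.741 FPKM in adult control libraries, and 0.935 ± 0.688 FPKM at E18 (SD, n = 2 each). On the strand opposite to Slc6a9 lie Ccdc24, a long noncoding RNA and B4galt2, a galactosyltransferase gene that has its own entry.

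Slc6a11, the GABA transporter gene, is given as the sum of its loci. It had 261 and 246 FPKM in adult miR-1247 libraries, 197 and 194 FPKM in adult control libraries, and 38.5 and 39.5 FPKM in E18 libraries. Its groups did not overlap, and unlike Gad2 and Slc6a9 it was well above 1 FPKM at E18. The means were 253 ± 10.8 FPKM in adult miR-1247, 196 ± 1.62 FPKM in adult control libraries, and 39.0 ± 0.737 FPKM at E18 (SD, n = 2 each).

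Pax6 had 220.4 and 229 FPKM in adult miR-1247 libraries, 167 and 169 FPKM in adult control libraries, and 226 and 239 FPKM in E18 libraries. Only the control libraries stood apart, below the others, and the miR-1247 and E18 libraries overlapped. The means were 225 ± 5.98 FPKM in adult miR-1247, 168 ± 1.54 FPKM in adult control libraries, and 232 ± 9.67 FPKM at E18 (SD, n = 2 each). The gene lies at chr2:105499234-105530952 on the plus strand in GENCODE. The table gives it the wider interval chr2:105366424-105734909, which it shares with Elp4, an Elongator subunit gene on the minus strand. Pax6os1, a minus strand long noncoding RNA with no entry of its own, overlaps the same interval, and the library kit as named does not mark strand.

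**Figure D1:**
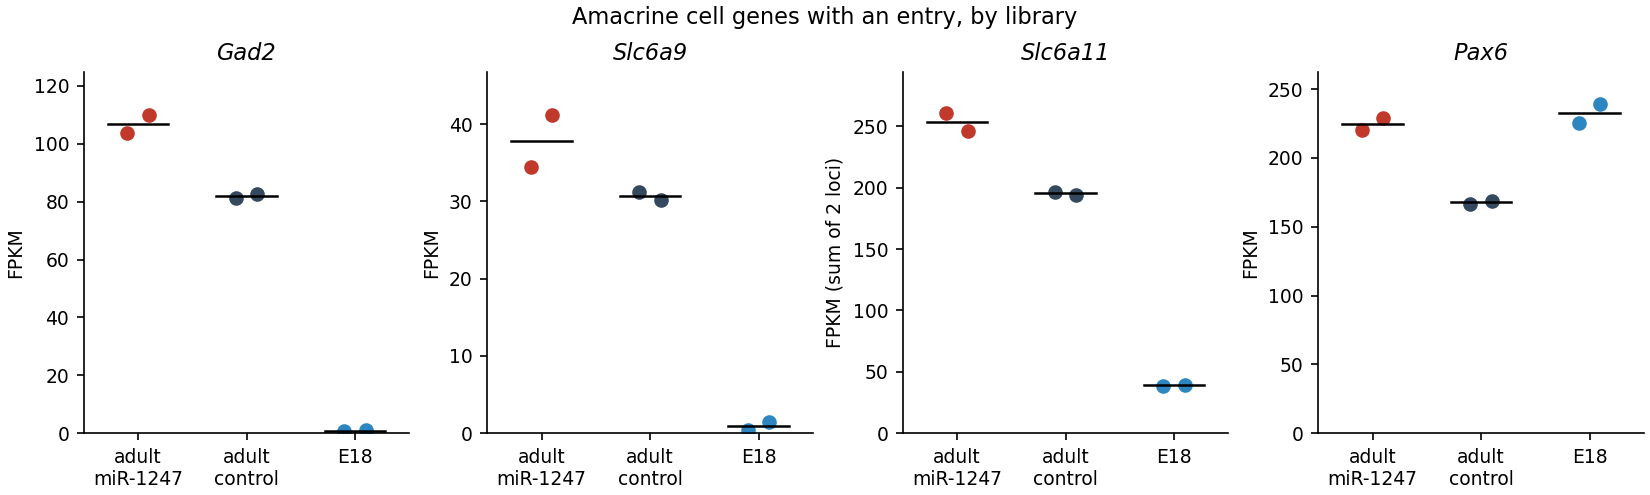
FPKM (y axis, from 0) of Gad2, Slc6a9, Slc6a11 and Pax6 in the adult miR-1247, adult control and E18 libraries, with a point per library and a line at each group mean of 2 libraries. Gad2 and Slc6a9 are close to 0 at E18, Slc6a11 is at 38.5 and 39.5 FPKM there, and Pax6 is lowest in the adult control libraries.

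In FPKM, which is per length, the order of the 4 genes at E18 was Pax6, Slc6a11, then Slc6a9 and Gad2, whose E18 values overlapped. In adult control libraries the order was Slc6a11, Pax6, Gad2 and Slc6a9, and no neighbours overlapped. In adult miR-1247 libraries the order of the means was the same, again with no overlap.

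The comparison of adult control with E18 libraries follows the amacrine cell genes across RGC maturation, as far as the preparations can be compared. Gad2 was 44.8-fold and Slc6a9 16.9-fold higher in adult control libraries on the FPKM + 1 scale, Slc6a11 was 4.92-fold higher, and Pax6 was lower. The value of Slc6a11 is for the sum of its loci. The locus numbered among plus strand loci, the strand of the gene, gave a log2 fold change of only 0.78. All 4 genes were called at an adjusted p under 0.05 (limma on log2(FPKM + 1), two-sided, Benjamini-Hochberg over 9987 genes). In the same comparison 70.1% of all tested genes were called, 29.8% as higher and 40.2% as lower, so the calls of the 4 genes alone do not set them apart. The log2 fold change of Gad2 was 5.49 ± 0.11 (SE, adjusted p = 1.942e-07), rank 12 of the 9987 genes from the top. That of Slc6a9 was 4.08 ± 0.24 (adjusted p = 1.303e-05), rank 54, and that of Slc6a11 was 2.30 ± 0.05 (adjusted p = 3.242e-07), rank 348. The sizes for Gad2 and Slc6a9 depend on the added 1 FPKM, since their E18 values lie near it. With 0.1 FPKM added in its place the log2 fold changes were 6.45 for Gad2 and 5.07 for Slc6a9. Both genes passed the filter only through their adult libraries, as their E18 means were 0.856 and 0.935 FPKM. A gene that low in all 6 libraries was not tested. Pax6 fell by 0.47 ± 0.05 on the log2 scale (adjusted p = 0.0001927). The median log2 fold change was 3.19 over the 4 genes and -0.16 over all tested genes.

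In bulk libraries such as these, a change in the number of cells of a type and a change in RNA per cell cannot be told apart. Müller glia also carry the Slc6a11 product, and of 16 listed markers of Müller glia and astrocytes 6 were in the table. Their summed level was 2017 and 1908 FPKM in adult miR-1247 and 1574 and 1229.5 FPKM in adult control libraries. In E18 libraries it was 182 and 181 FPKM. Much of the gap between the adult groups was Glul, with 795 and 632 FPKM in adult miR-1247 and 463 and 122 FPKM in adult control libraries. Glul was not called between the adult groups (limma, adjusted p = 0.1162). Of the 6 markers, Aldoc, Dkk3, Apoe, Clu and Glul were called as higher and Vim as lower in adult control than in E18 libraries. Over all tested genes 29.8% were called as higher and 40.2% as lower. The list median was 3.41 on the log2 scale. Rlbp1, Aqp4 and Slc1a3, which mark Müller glia more narrowly, and Gfap, a marker of retinal astrocytes, were not analysed here. The part of glial RNA in the amacrine cell genes was not tested.

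Slc6a11 was the amacrine cell gene with more than 1 locus in the table, and the loci did not behave alike between the ages. Both were listed at chr6:114108201-114227052. One was numbered among plus strand loci, the strand of the Slc6a11 gene, and the other among minus strand loci. Locus numbers of the table follow the strand: on all 20 chromosomes, and over 9337 single-locus genes with 1 strand in GENCODE, no plus strand locus was numbered after a minus strand one (0 exceptions). The locus numbered as plus had 98.3 and 92.8 FPKM in adult miR-1247, 64.5 and 71.2 FPKM in adult control, and 38.5 and 39.5 FPKM in E18 libraries. The locus numbered as minus had 163 and 153 FPKM in adult miR-1247, 132 and 123 FPKM in adult control, and 0.00546 and 0.000835 FPKM in E18 libraries. The minus locus thus made up 62.3% to 67.2% of the summed value in the 4 adult libraries and at most 0.0142% at E18. The adult control over E18 log2 fold change was 2.30 for the sum, 0.78 for the plus locus alone and 7.0 for the minus locus alone, and each of these was called. A fold change of the minus locus rests on E18 values near 0 and so on the added 1 FPKM.

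GENCODE places a minus strand long noncoding RNA, Gm52916, at chr6:114141281-114142785 and a minus strand pseudogene, Gm8132, at chr6:114145845-114146484, both within Slc6a11. Neither had an entry of its own. Loci in both strand blocks were common in the table, at 613 of 652 gene names with several loci, and which transcripts the minus locus counts was not tested. The library kit as named does not mark strand, so the strand of the reads at either locus is not known.

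**Figure D2:**
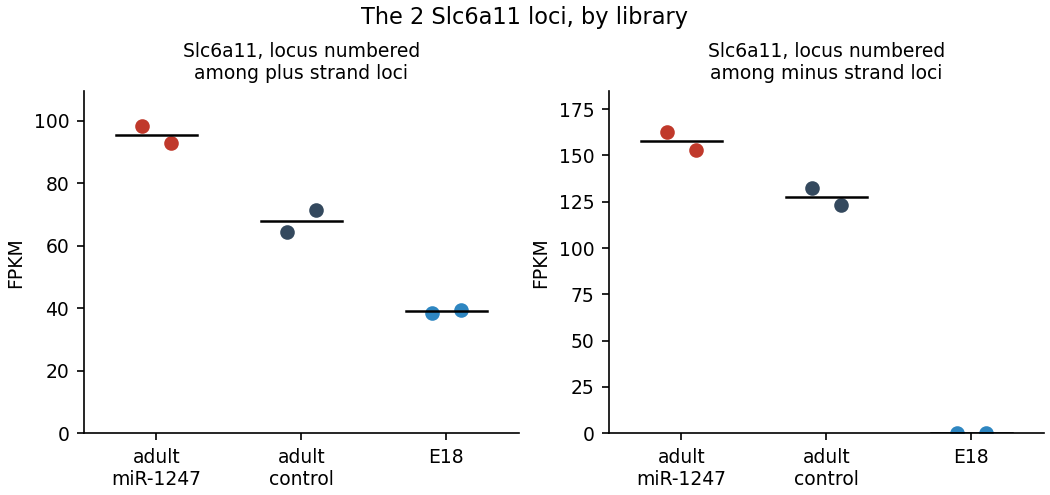
FPKM (y axes, each from 0) of the 2 Slc6a11 loci in the adult miR-1247, adult control and E18 libraries, with a point per library and a line at each mean of 2. The Slc6a11 locus numbered among minus strand loci is near 0 in both E18 libraries and at 123 to 163 FPKM in the adult ones, while the other locus is present in all 6.

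The adult miR-1247 libraries were next set against the adult control ones, which differed from them in what the AAV2 carried. In these bulk libraries too, a change in the number of cells of a type and a change in RNA per cell cannot be told apart. Every one of the 4 genes had higher FPKM in both miR-1247 libraries than in both control libraries. Pax6 was 1.34-fold and Slc6a11 1.29-fold higher on the FPKM + 1 scale and passed the test, while Gad2 and Slc6a9 did not. The log2 fold change of Pax6 was 0.42 ± 0.05 (SE, limma, adjusted p = 0.008708). That of Slc6a11 was 0.37 ± 0.05 (adjusted p = 0.01479). Gad2 had a log2 difference of similar size, 0.38 ± 0.11, with an adjusted p of 0.08348. Slc6a9 had 0.29 ± 0.24 with an adjusted p of 0.4736. Thus 2 of the 4 genes were called, against 9.75% of all tested genes, 3.53% as higher and 6.22% as lower. The median log2 fold change was 0.38 over the 4 genes and -0.03 over all tested genes. Higher calls made up 36.2% of all calls with the deposited scaling, 46.6% with median ratio scaling and 15.1% with equal totals.

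These calls rested on few libraries. The adjusted p of Slc6a11 lay between 0.0615 and 0.0834 when any 1 of the 4 adult libraries was left out, and it was 0.1001 with equal totals per library. The adjusted p of Pax6 lay between 0.05096 and 0.06359 without either miR-1247 library or without the first control library, and it was 0.06307 without a variance trend. Without a variance trend the adjusted p of Slc6a11 was 0.07556 (limma). Taken singly, the plus locus of Slc6a11 was called (log2 fold change 0.489, limma, adjusted p = 0.01669). The minus locus was not called (0.305, limma, adjusted p = 0.0741). Gad2 passed at an adjusted p of 0.04546 when only the 4 adult libraries were fitted. All 4 log2 fold changes stayed above 0 in each alternative run, between 0.17 and 0.49.

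**Figure D3:**
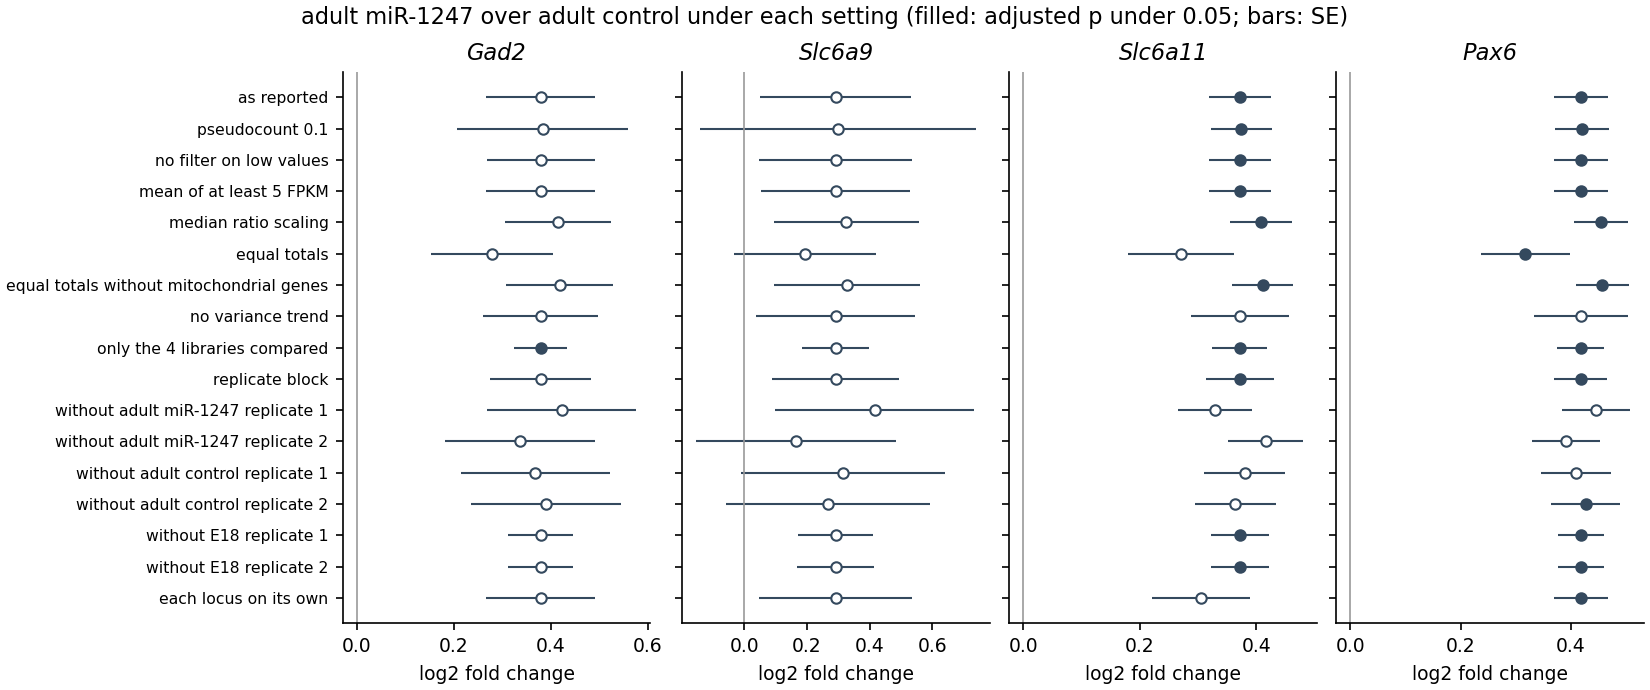
Log2 fold change of adult miR-1247 over adult control libraries (x axis, bars show SE) for the 4 genes under each processing setting (rows), with filled points for an adjusted p under 0.05. All points lie right of 0, Slc6a11 loses its call without any 1 of the 4 adult libraries and Pax6 without 3 of them, and Slc6a9 is called in none.

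Set against E18 libraries, adult miR-1247 libraries gave log2 fold changes of 5.87 for Gad2 (limma, adjusted p = 1.428e-07), 4.37 for Slc6a9 (adjusted p = 9.608e-06) and 2.67 for Slc6a11 (adjusted p = 1.572e-07). Pax6 differed by -0.05 ± 0.05 (SE) and was not called (adjusted p = 0.41). Gad2 and Slc6a9 again passed the filter only through their adult libraries. The value of Slc6a11 is for its summed loci, and its plus locus alone gave 1.27. In this comparison 69.9% of all tested genes were called, 28.4% as higher and 41.5% as lower. It shares its E18 libraries with the comparison of control with E18 and its miR-1247 libraries with the comparison within adults, so the 3 are not independent. The sign of the Pax6 difference depended on the scaling: it was 0.14 with median ratio scaling (adjusted p = 0.0366). That scaling moved the median over all genes to -0.01, against -0.19 as deposited, and for adult control over E18 to -0.02, against -0.16 as deposited. The levels of Pax6 at E18 and in adult miR-1247 libraries are therefore not ordered by these data.

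The 22 RGC markers listed all had an entry, and within adults their log2 fold changes had the opposite sign from those of the 4 amacrine cell genes. Their summed level was 2540.3 and 2517 FPKM in adult miR-1247, 4129 and 4081 FPKM in adult control, and 6879 and 6887 FPKM in E18 libraries. Between adult miR-1247 and adult control libraries, 20 of the 22 were called as lower and none as higher. Over all tested genes these shares were 6.22% and 3.53%. The list median was -0.72, and Elavl4 and Tbr1 were not called. Examples were Opn4, the photopigment gene of intrinsically photosensitive RGCs (log2 fold change -1.55, limma, adjusted p = 0.01884), Slc17a6, the vesicular glutamate transporter gene (-1.14, adjusted p = 0.001091), and Rbpms, an RNA-binding protein gene of RGCs (-0.99, adjusted p = 0.004901). Between adult control and E18 libraries 14 were called as lower and 7 as higher, beside 40.2% and 29.8% of all tested genes, with a median of -0.98.

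Relative to that sum, which does not contain them, the amacrine cell genes differed more between the adult groups than in FPKM. This follows from the sum itself, with means of 2529 FPKM in adult miR-1247 and 4105 FPKM in adult control libraries. A gene with the same FPKM in both adult groups would also be higher in miR-1247 libraries on this scale. A few abundant genes weigh most in the sum, and not the same ones at both ages. The largest means at E18 were those of Sncg (1443 FPKM), Tubb3 (1408 FPKM) and Stmn2 (977 FPKM). In adult control libraries they were those of Thy1 (855 FPKM), Sncg (786 FPKM) and Nefl (623 FPKM). The percentages therefore do not give amounts per RGC. Gad2 equalled 4.08% and 4.37% of the summed RGC markers in adult miR-1247 libraries, 1.97% and 2.02% in adult control libraries, and 0.00991% and 0.015% in E18 libraries. Slc6a9 was 1.36% and 1.64% in adult miR-1247, 0.755% and 0.738% in adult control, and 0.00652% and 0.0206% in E18 libraries. Slc6a11, with its loci summed, was 10.3% and 9.77% in adult miR-1247, 4.76% in both adult control, and 0.559% and 0.574% in E18 libraries. None of the 3 groups overlapped for any of these genes. These ratios were not tested, and both the numerator and the denominator moved.

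Pax6 equalled 8.68% and 9.09% of the summed RGC markers in adult miR-1247 libraries, 4.04% and 4.14% in adult control libraries, and 3.28% and 3.47% in E18 libraries. Here the adult control libraries stood above the E18 ones, whereas in FPKM they stood below. The order also depended on the marker. The ratio of Pax6 to Rbpms was 1.64 and 1.52 in adult control libraries and 0.766 and 0.825 in E18 libraries. The ratio of Pax6 to Slc17a6 was 1.34 and 1.42 in adult control libraries and 4.10 and 4.72 in E18 libraries. Against Thy1, the antigen used for panning, it was 0.193 and 0.199 in adult control and 0.630 and 0.692 in E18 libraries. For Gad2 the order did not depend on the marker, and its ratio to Rbpms was 1.77 and 2.28 in adult miR-1247, 0.799 and 0.742 in adult control, and 0.00231 and 0.00355 in E18 libraries.

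**Figure D4:**
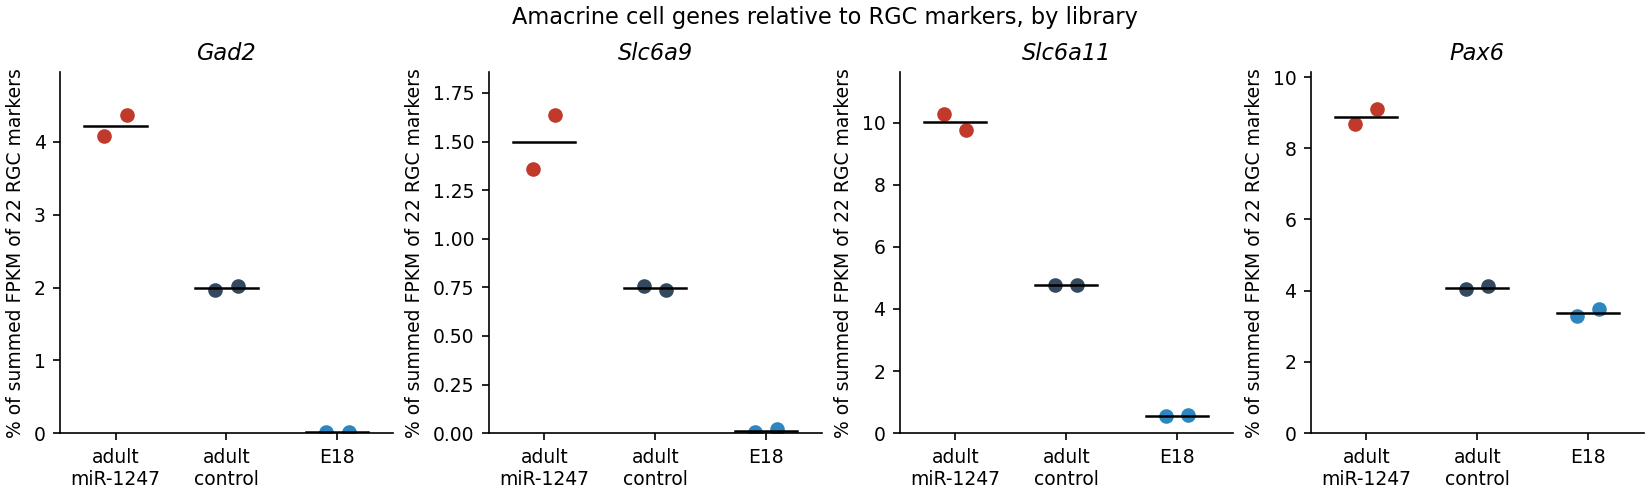
FPKM of each amacrine cell gene as a percentage of the summed FPKM of 22 RGC markers (y axes, each from 0) in the adult miR-1247, adult control and E18 libraries, with a point per library and a line at each mean of 2. All 4 genes are highest in the miR-1247 libraries on this scale, Gad2 at 4.08% and 4.37%.

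Around GABA itself, 11 of 15 genes listed for its uptake, turnover and precursor supply had an entry and were tested. The list also held the chloride transporter genes Slc12a5 and Slc12a2 and the proton pump subunit gene Atp6v1a, which do none of these. Its counts and median include them. Between adult control and E18 libraries 8 of the 11 were called as higher and 2 as lower, with a median log2 fold change of 1.52, beside 29.8% and 40.2% of all tested genes. The higher ones were Slc12a5, the neuronal chloride exporter gene that sets the response to GABA (3.49), Abat, the GABA transaminase gene (2.61), the proton pump subunit gene Atp6v1a (2.01), and the glutamate transporter gene Slc1a1 (1.98). Aldh5a1, which completes GABA breakdown (1.76), Glul (1.52), Slc1a2 (1.26) and the glutamine transporter gene Slc38a1 (0.89) were also higher. Slc38a2, another glutamine transporter gene (-1.14), and Slc12a2, the chloride importer gene (-0.67), were lower. Akr7a5 (0.15) was not called.

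Within adults the genes of this GABA list did not move as a block. Slc38a2 (-0.60) and Abat (-0.32) were called as lower in adult miR-1247 than in adult control libraries, and none of the 11 as higher. Over all tested genes these shares were 6.22% and 3.53%. Abat had 88.3 and 88.9 FPKM in adult miR-1247 libraries, 111 and 110.3 FPKM in adult control libraries, and 18.1 and 16.4 FPKM in E18 libraries, so that the gene for GABA breakdown was lower in the group where Slc6a11 was higher. The other 9 were not called, with log2 fold changes of -0.04 for Slc12a5, 0.10 for Aldh5a1, -0.16 for Atp6v1a, 0.26 for Slc1a1, 0.36 for Slc1a2, -0.05 for Slc38a1, 0.23 for Slc12a2, 0.32 for Akr7a5 and 1.57 for Glul. Glul, the glutamine synthetase gene of Müller glia, had 795 and 632 FPKM in adult miR-1247 libraries, 463 and 122 FPKM in adult control libraries, and 80.1 and 84.7 FPKM in E18 libraries, and its adult libraries varied the most of the list. The median of the 11 was 0.10.

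On the glycine side, 3 of 8 listed genes of glycine uptake and turnover were tested, all of them genes of mitochondrial proteins. Gcsh was called as higher in adult control than in E18 libraries (log2 fold change 0.65, limma, adjusted p = 0.01846), and Shmt2 (0.27) and Dld (0.00) were not. None of the 3 was called between adult miR-1247 and adult control libraries by limma, with log2 fold changes of -0.26 for Dld, -0.07 for Shmt2 and -0.06 for Gcsh. Of them 1, Dld, had an unadjusted p under 0.05 (0.009474).

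Of 36 other transcription factors listed for amacrine cells or their subtypes, 16 were tested. Between adult control and E18 libraries 6 were called as higher and 5 as lower, with a median of 0.32. These 11 of 16 are near the 70.1% called over all tested genes. Bhlhe22, a factor of amacrine subtypes, had the largest log2 fold change (5.29), with 113 and 116 FPKM in adult miR-1247 libraries, 88.3 and 96.6 FPKM in adult control libraries, and 1.33 and 1.45 FPKM in E18 libraries. Meis2, a homeobox factor of amacrine cells, followed (2.96), then Eomes (2.82) and Neurod2 (2.18). Neurod2 passed the filter only through its adult libraries, with an E18 mean of 0.837 FPKM. Isl1 (-3.23), Ebf3 (-2.02), Ebf1 (-1.47) and Zfhx3 (-0.79) were called as lower. Ebf1, Ebf3, Eomes and Tbr1 are also in the list of RGC markers, and Isl1 is made in RGCs and bipolar cells as well.

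In the same list, Meis2 (0.42, adjusted p = 0.02672) and Lmo4 (0.40, adjusted p = 0.04351) were called as higher in adult miR-1247 than in adult control libraries by limma. Meis2 had 225 and 228 FPKM in adult miR-1247 libraries, 174 and 163 FPKM in adult control libraries, and 19.4 and 22.3 FPKM in E18 libraries. Called as lower were Neurod2 (-1.27), Ebf1 (-0.73), Eomes (-0.71), Ebf3 (-0.67) and Isl1 (-0.61). Bhlhe22 was not called (0.30, adjusted p = 0.07428). The list median was 0.11, and over all tested genes 3.53% were called as higher and 6.22% as lower.

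Among peptides, calcium binders and subtype markers of amacrine cells, 23 of 41 listed genes were tested. Between adult control and E18 libraries 14 were called as higher and 6 as lower, beside 29.8% and 40.2% of all tested genes, with a median of 1.74. Penk, Pvalb, Npy, Syt2 and Trhde passed the filter only through their adult libraries, with E18 means of 0.498, 0.244, 0.481, 0.671 and 0.936 FPKM. Genes that low in all 6 libraries were not tested, so the filter favours higher calls and a higher median here. Penk, the enkephalin precursor gene, had 35.0 and 25.1 FPKM in adult miR-1247 libraries, 63.0 and 72.6 FPKM in adult control libraries, and 0 and 0.996 FPKM in E18 libraries. The others with the largest changes were Pvalb (4.85), a calcium binder gene, Npy (4.29), a peptide gene listed at 0 in the first E18 library, and Tac1 (2.99), the substance P precursor gene. Slc18a2, the vesicular monoamine transporter gene (-4.35), Snhg11 (-2.21), Cntn5 (-2.21) and Stx1a (-1.76) were lower. Between adult miR-1247 and adult control libraries Snhg11 was called as higher (0.48), and Calb1 (-1.16) and Calb2 (-0.44), both calcium binder genes, as lower. The other 20 were not called, and the median was -0.11. Of all tested genes 9.75% were called.

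Genes listed for the receptors that answer GABA and glycine were mostly higher in adult libraries, with 11 of 15 called as higher and 2 as lower in adult control against E18 and a median of 0.64. The list also held Gphn, a scaffold gene and not a receptor gene, which was among those called as higher (0.29). Over all tested genes 29.8% were called as higher and 40.2% as lower. Glrb, the shared beta subunit of glycine receptors (3.83), Gabrg1 (2.68), Gabrb1 (1.94) and Gabbr2 (1.70) had the largest increases, and Gabra5 (-1.57) and Gabbr1 (-0.59) were lower. Gabrg1 and Gabrb1 passed the filter only through their adult libraries, with E18 means of 0.499 and 0.552 FPKM. Between adult miR-1247 and adult control libraries 1 of the 15 was called, beside 9.75% of all tested genes. It was Gabra3, as higher (0.35, limma, adjusted p = 0.04746), and the median of the list was -0.11.

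**Figure D5:**
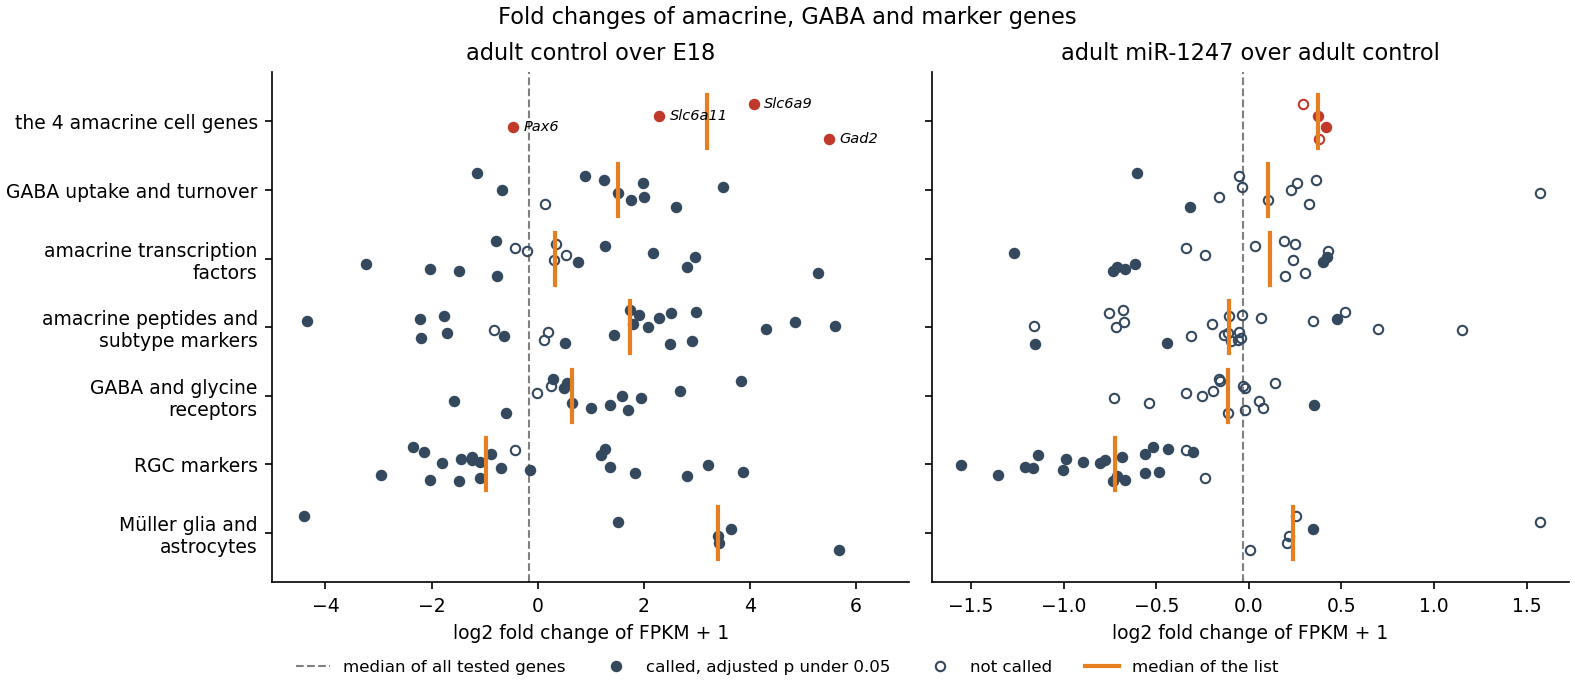
Log2 fold changes of FPKM + 1 (x axes) of single genes by list (rows), for adult control over E18 (left) and adult miR-1247 over adult control (right), with filled points for called genes, orange bars at list medians and a dashed line at the median of all tested genes. Within adults the 4 amacrine cell genes lie between 0.29 and 0.42 while the RGC markers have a median of -0.72.

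Markers of other retinal cells were thinly covered. Of horizontal cell markers 6 of 11 were tested, of bipolar cell markers 4 of 15, of rod and cone markers 2 of 18, and of progenitor markers 4 of 19. The rod and cone markers summed to 26.9 and 24.3 FPKM in adult miR-1247 libraries, 46.8 and 45.6 FPKM in adult control libraries, and 6.41 and 5.57 FPKM in E18 libraries. The horizontal cell markers, whose cells share Tfap2a and Tfap2b with amacrine cells, summed to 73.6 and 75.6 FPKM in adult miR-1247, 93.6 and 93.2 FPKM in adult control, and 134 and 128 FPKM in E18 libraries. Among bipolar cell markers, Prkca, a kinase gene of rod bipolar cells, had 36.9 and 33.9 FPKM in adult miR-1247, 22.7 and 27.97 FPKM in adult control, and 10.54 and 11.1 FPKM in E18 libraries. Prkca and Car8 were called as higher and Isl1 as lower in adult control than in E18 libraries, and Gng13 was not called. Car8 passed the filter only through its adult libraries, with an E18 mean of 0.132 FPKM. The sum of the 4 bipolar cell markers went the way of Isl1, which alone had 9.22 and 11.8 FPKM in adult miR-1247, 14.8 and 18.4 FPKM in adult control, and 163 and 164 FPKM in E18 libraries. The progenitor markers, whose cells also make Pax6, summed to 259 and 242 FPKM in adult miR-1247, 236 and 228 FPKM in adult control, and 233 and 237 FPKM in E18 libraries, most of it Six3. Single progenitor markers went in opposite directions. Six3 (0.17) and Six6 (0.50) were called as higher in adult control than in E18 libraries, and Dapl1 (-3.92) and Hes6 (-0.92) as lower. Dapl1 was listed at 0 in all 4 adult libraries and had 14.2 FPKM in both E18 libraries. Within adults the list of Müller glia and astrocytes had 1 gene of 6 called as higher, Dkk3, and none as lower. Over all tested genes these shares were 3.53% and 6.22%. The median of the glial list was 0.24. The part of these cells in the amacrine cell genes was not tested.

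The genes with a pattern most like each amacrine cell gene were those at the smallest Euclidean distance over the 6 libraries, on log2(FPKM + 1) centred per gene. For Gad2 they were Pcp4l1 at 0.166, Bhlhe22 at 0.324 and Aldoc, a glycolytic aldolase gene, at 0.427. Pcp4l1 had means of 206 ± 4.22, 156 ± 4.03 and 2.72 ± 0.769 FPKM in adult miR-1247, adult control and E18 libraries (SD, n = 2). For Slc6a9 they were Kcna1, a potassium channel gene, at 0.241, Qpct at 0.361 and Vstm2a at 0.503. For Slc6a11, with its loci summed, they were Pde4b, a cyclic AMP phosphodiesterase gene, at 0.084, Fndc5 at 0.113 and Tnk2, a kinase gene, at 0.132. For Pax6 they were Prdx3, a mitochondrial peroxidase gene, at 0.097, Znrf2 at 0.105 and Unc13b, a vesicle priming gene, at 0.110. The 6 libraries fall into 3 groups, so a small distance reflects mostly the 3 group means.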

How the data were processed

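Poly-A RNA was sequenced from 6 libraries, with reads of 100 bases from each end of a fragment, per the labels' protocols. HISAT2, Cufflinks and Cuffdiff and the build mm39 are named in the submitters' processing notes, with no versions. The authors deposited FPKM per locus, with 0.00001 added to each value, and log2 ratios of group means. Recomputed ratios differed from the authors' log2 ratios by at most 0.0015 and 0.0021.

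The added constant was taken off, loci of a name were summed, and names made of the same loci were counted once, which left 10162 of 10361 names. Of these, 9987 had a mean of at least 1 FPKM and were tested. One limma fit (version 3.58.1, R 4.3.3) on log2(FPKM + 1) covered all 6 libraries and 3 group means, with a variance trend and Benjamini-Hochberg adjustment at 0.05. It was tested on simulated data. FPKM is relative to each library's own total, so a change in abundant genes moves all other values. The tables were joined with pandas 2.3.3 and NumPy 2.4.6 under Python 3.11.15 and drawn with Matplotlib 3.10.9.

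The 8 genes and the lists were chosen with earlier results of these data known, and some list genes are not reported here and were left out of the list counts. Named were the amacrine cell genes with an entry, all tested genes of GABA and glycine uptake and turnover, up to 4 called genes per direction of other lists, and for each amacrine cell gene the 3 genes of nearest pattern. Genes given to show 1 marker or a level per library were chosen after their values were seen. Alternatives changed the pseudocount, the filter, the scaling, the variance model, the libraries, a replicate block and the summing of loci. Gene strands and untranslated regions came from GENCODE vM39 on GRCm39, and sequences from RefSeq on GRCm38.p6, with no conversion between builds.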

Additional observations from a re-analysis of the deposited data

How the results depend on the processing

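The calls of all 4 genes for adult control over E18, and of Gad2, Slc6a9 and Slc6a11 for adult miR-1247 over E18, held in every alternative run. Between adult miR-1247 and adult control libraries, 974 genes and 2 of the 4 amacrine cell genes were called as reported. Without a variance trend 343 genes and 0 of the 4 were called, and with only the 4 adult libraries 347 genes. With each library left out in turn the calls were between 121 and 242 genes and between 0 and 2 of the 4, with 0 of the 4 without either miR-1247 library or without the first control library. A group left with 1 library was assumed to vary like the others. With equal totals, and with each locus on its own, 1 of the 4 was called. In the 4 fits with 0 calls among them, 2 to 3 of the 4 genes had an unadjusted p under 0.05 (limma).

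The Pax6 difference between adult miR-1247 and E18 libraries, -0.05 as reported, was 0.14 with median ratio scaling, 0.12 with equal totals without mitochondrial genes, and 0.015 with Pax6 and Elp4 summed, an alternative chosen after seeing the data, as were the Slc6a11 loci taken singly. The causes of these differences were not tested. With a replicate block 584 genes were called and the calls of the 4 genes did not change. Deviations of same-numbered libraries had correlations across genes of -0.008, 0.004 and -0.002. With a single difference per group, these values cannot show whether same-numbered libraries were prepared together. With 2 libraries per group the spread is poorly known: the SE of Slc6a9 within adults was 0.24 as reported and 0.11 with only the 4 adult libraries (limma, adjusted p = 0.1773).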
